A study of Homo sapiens with 24 samples.

Results

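TF-1, a human erythroleukemia cell line that needs a growth factor to proliferate, was exposed to 3 mM cyclocreatine for 24 h, and its RNA was compared with that of TF-1 cells given vehicle for 24 h. The comparison rests on 8 of the 24 libraries of the series, 4 under cyclocreatine and 4 under vehicle, and these were chosen from the line and treatment that their labels state. The other 16 libraries come from the same treatments of UT-7 and UCSD-AML1. The study describes all 3 lines as acute myeloid leukemia driven by EVI1, the protein of MECOM, so the vehicle cells carry that background as well. TF-1 is a single line. Whether the 4 libraries per group are separate cultures is not stated. A p-value here reflects no more than the spread between libraries within groups, which may be technical. That spread was estimated over all 24 libraries, those of the other lines included. All 12 markers of the line (CD34, KIT, GATA1, the fetal globins and the receptors for GM-CSF and erythropoietin among them) had a mean of at least 1 CPM.

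Creatine kinase moves a phosphate between ATP and creatine and so buffers ATP where it is used quickly. SLC6A8 imports creatine, GATM and GAMT make it, and the cytosolic kinases CKB and CKM and the mitochondrial kinases CKMT1 and CKMT2 phosphorylate it. Cyclocreatine is a cyclic analog of creatine that the kinases phosphorylate to a product that returns its phosphate to ADP only slowly. Levels are given as counts per 1000000 counts (CPM), with library totals scaled by TMM (trimmed mean of M-values), and changes as log2 fold changes of cyclocreatine over vehicle. A gene was called where the edgeR quasi-likelihood test gave a Benjamini-Hochberg adjusted p under 0.05 over all 14588 genes tested. Means are given ± SD and log2 fold changes ± SE, with n = 4 libraries per group.

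Library totals were 14993466 to 21200662 counts under cyclocreatine and 15112620 to 17047051 counts under vehicle. A count of 0 in 1 library allows up to 3 counts, or 0.1415 to 0.2001 CPM under cyclocreatine and 0.176 to 0.1985 CPM under vehicle, for counting error only. The first principal component of the 8 libraries held 61.4% of the variance and separated the treated from the vehicle libraries. Cyclocreatine replicate 1 stood apart on the next component (11.6% of the variance), at -27.47, and the remaining 3 treated ones were at 9.091 to 12.23. Its log2 values departed from those of its group with an SD of 0.243, against 0.1211 to 0.1325 for the other treated libraries and 0.0896 to 0.1026 for the vehicle libraries.

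The departure of that library followed transcript length. Among the 410 genes with transcripts shorter than 750 nucleotides, the median log2 ratio to the vehicle mean was 0.44 in replicate 1 and 0.15, 0.15 and 0.18 in replicates 2 to 4. In the 1333 genes of 6000 nucleotides or more it was -0.37 in replicate 1 and -0.079, -0.063 and -0.046 in replicates 2 to 4. The other treated libraries therefore showed a shift of the same sign and smaller size. No vehicle library departed by more than 0.056 in any length class. In the longest class vehicle replicates 1 and 2 were at 0.056 and -0.051. Treated replicate 4 thus lay within the vehicle spread there, and treated replicates 2 and 3 little beyond it. Cyclocreatine replicate 1 is called replicate 1 from here on. A log2 fold change in square brackets is the value without that library, and group counts are likewise given with and without it, while the part of length in the results was not tested beyond these values.

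**Figure D1:**
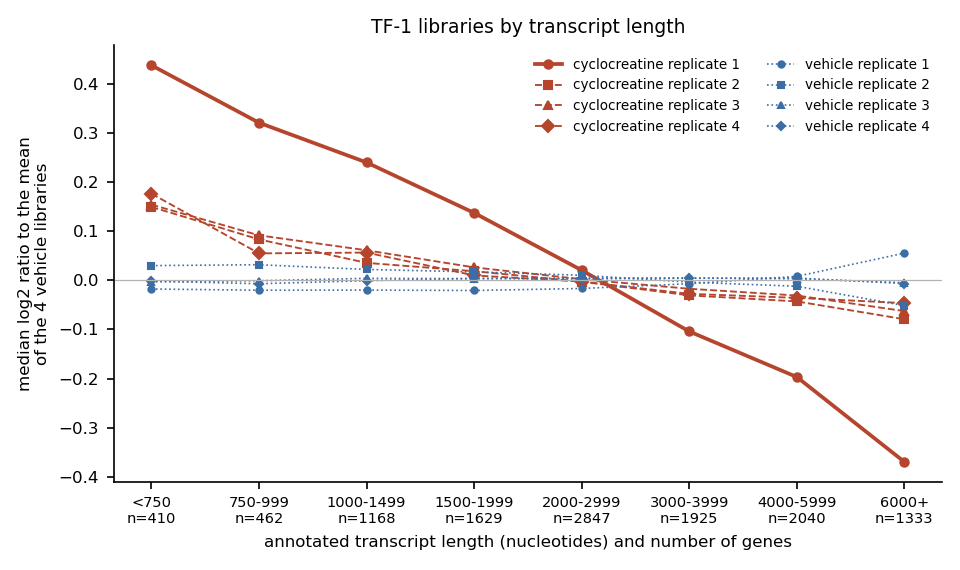
Median log2 ratio of each TF-1 library to the mean of the 4 vehicle libraries (vertical axis) in classes of annotated transcript length in nucleotides (horizontal axis, with the number of genes). Cyclocreatine replicate 1 (thick line) runs from 0.44 in the shortest class to -0.37 in the longest, and the other treated libraries (dashed) from between 0.15 and 0.18 to between -0.079 and -0.046.

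Under cyclocreatine, 3901 of the 14588 genes tested rose and 4272 fell, which is 26.7% and 29.3%, or 56.0% in either direction. These shares are the background for each gene group below, whose counts are followed in brackets by the numbers called higher and lower without replicate 1 and by the median log2 fold changes with and without it. Most changes were small: the median size among called genes was 0.41 on the log2 scale, and 349 genes rose and 709 fell by at least 2-fold. Without replicate 1 the test called 3979 genes higher and 4316 lower, or 27.3% and 29.6%, 56.9% in all. Of the genes called with all libraries, 3575 higher and 3967 lower ones were also called without it, 326 and 305 were lost, and 0 changed direction. The 4 treated libraries did not overlap the 4 vehicle libraries in 5868 genes (40.2% of those tested), of which 5789 were called. Absence of overlap was also a condition for naming genes by the size of their change. With scaling by library totals alone the split was 3001 higher and 5225 lower, and the median log2 fold change over all genes was -0.088, against -0.0084 with TMM and -0.0072 with TMM but without replicate 1.

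Of the creatine genes that could be tested, SLC6A8, CKB and GAMT fell and GATM and CKM did not pass with all libraries. SLC6A8, the transporter that brings creatine into the cell, measured 243, 204, 245 and 271 CPM in the cyclocreatine libraries, against 522, 509.6, 505 and 546 CPM in the vehicle libraries. The groups did not overlap, and the log2 fold change was -1.11 ± 0.11 (adjusted p = 3.7e-08) and -1.11 without replicate 1. CKB, the brain-type cytosolic kinase, fell to 667 ± 79.8 CPM under cyclocreatine, against 989.9 ± 18.8 CPM under vehicle (-0.57 ± 0.054 [-0.66], adjusted p = 3.6e-10). GAMT, the last enzyme of creatine synthesis, had 17.7, 13.4, 13.2 and 13.5 CPM in the cyclocreatine libraries, against 21.8, 20.7, 20.02 and 18 CPM in the vehicle libraries, with replicate 1 the highest of the treated libraries (log2 fold change -0.47, or -0.58 without replicate 1). GATM, the first enzyme, lay near the threshold (-0.27, adjusted p = 0.0599 with all libraries, and -0.29, adjusted p = 0.0414 without replicate 1). It also passed with limma-voom (adjusted p = 0.0247) and DESeq2 (adjusted p = 0.0369) with all libraries. CKM, the muscle-type kinase, measured 13.3, 10.8, 13.1 and 10.5 CPM under cyclocreatine against 10.5, 10.9, 13.6 and 10.9 CPM under vehicle (0.045 ± 0.11 [-0.018]), and these ranges overlapped. MECOM measured 8.16, 15.8, 7.64 and 11.6 CPM under cyclocreatine against 16.5, 12.8, 11.9 and 10.9 CPM under vehicle, which overlapped as well, with a log2 fold change of -0.26 ± 0.15 [-0.15] (edgeR adjusted p = 0.148). That value rested on cyclocreatine replicate 2, the highest treated library: without it MECOM fell (-0.48, edgeR adjusted p = 0.000794). CKMT1A, CKMT1B and CKMT2 were too low to test: summed over 4 libraries each, they held 30, 35 and 21 counts under cyclocreatine against 48, 18 and 11 counts under vehicle. CKMT1A and CKMT1B are near-identical copies whose reads are uncertain. Because these are bulk samples, a change in every cell and a change in the share of cells in some state cannot be told apart, here or below.

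Among genes that handle adenine nucleotides and sense energy, changes ran both ways. Of the 17 tested adenylate kinases and enzymes of AMP, 7 rose, 7 fell and 3 did not pass (6 and 7 without replicate 1, medians 0.018 and -0.042). AK4, the adenylate kinase of the mitochondrial matrix, fell to 117 ± 3.87 CPM under cyclocreatine, against 189.8 ± 5.9 CPM under vehicle (-0.70 ± 0.043 [-0.69]). NT5C2, a cytosolic nucleotidase that degrades IMP and GMP, changed by -0.68 ± 0.042 [-0.65], and APRT, which salvages adenine to AMP, by 0.60 ± 0.063 [0.51]. With library totals alone these counts were 5 and 7. Of 15 genes for AMPK, the kinase switched on by AMP, and its partners, 5 rose, 5 fell and 5 did not pass (5 and 6 without replicate 1, medians -0.044 and -0.042), and 4 and 8 with library totals alone. PRKAG1, a gamma subunit, rose by 0.33 [0.31], and PRKAG2, another gamma subunit with a mean of only 2.62 CPM, changed by -1.15 [-1.05] on the log2 scale. Of 8 arrestin and MondoA genes, 3 rose, 1 fell and 4 did not pass (3 and 1 without replicate 1, medians 0.37 and 0.30). TXNIP and ARRDC4, arrestin-fold genes that the sugar sensor MondoA switches on, rose together with their relative ARRDC3. TXNIP, which restrains glucose uptake, measured 600.2, 646, 598 and 598 CPM in the cyclocreatine libraries, against 342, 361, 350.1 and 363 CPM in the vehicle libraries (0.79 ± 0.041 [0.79]). Its groups did not overlap, nor did those of ARRDC3 (0.96 ± 0.064 [0.99]) and ARRDC4 (1.10 ± 0.074 [1.16]).

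Of the 28 genes of glycolysis and sugar or lactate transport, 4 rose, 13 fell and 11 did not pass (2 and 15 without replicate 1, medians -0.081 and -0.16; 1 and 19 with library totals alone). The called ones that fell included regulators and importers. PFKFB4, which makes the activator of phosphofructokinase, had 24.5, 19.4, 24.6 and 23.7 CPM in the cyclocreatine libraries, against 59.2, 55, 54.8 and 58.3 CPM in the vehicle libraries (-1.30 ± 0.075 [-1.33], adjusted p = 2.6e-17). ENO2, an enolase isoform, changed by -1.32 ± 0.092 [-1.30], and the glucose transporters SLC2A3 and SLC2A1 by -0.92 [-1.01] and -0.52 [-0.51]. The 22 tested targets and regulators of hypoxia-inducible factor, which share some of these genes, moved likewise: 1 rose, 13 fell and 8 did not pass (1 and 13 without replicate 1, medians -0.23 and -0.21). BHLHE40, a repressor in that response, fell to 37.7 ± 3.64 CPM under cyclocreatine, against 83.8 ± 6.92 CPM under vehicle (-1.15 ± 0.06 [-1.11]). EGLN1, the oxygen-sensing hydroxylase that marks the factor for decay, changed by -0.56 ± 0.049 [-0.54].

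Many genes of the mitochondrial respiratory chain rose by small amounts. Of 38 subunits and assembly factors of complex I, 22 rose, 1 fell and 15 did not pass (18 and 3 without replicate 1, medians 0.19 and 0.087; 18 and 4 with library totals alone; 18 and 5 with the length trend removed). Of 37 genes of complexes III and IV and ATP synthase, 32 rose, 1 fell and 4 did not pass (27 and 2 without replicate 1, medians 0.27 and 0.20). UQCRB of complex III measured 319, 261, 273 and 270.4 CPM under cyclocreatine against 180.5, 180.2, 174 and 181 CPM under vehicle (0.65 ± 0.041 [0.58]), without overlap. COX7C of complex IV had 396, 309.9, 309 and 311 CPM under cyclocreatine against 208, 219.7, 219.5 and 222 CPM under vehicle (0.61 ± 0.052 [0.51]), also without overlap, and replicate 1 was the highest of its group. NDUFB4 and NDUFS4 of complex I changed by 0.58 ± 0.051 and 0.66 ± 0.061, or 0.54 and 0.64 without replicate 1. Both medians were smaller without replicate 1, in which short transcripts stood high. The median transcript was 887 nucleotides in the complex I list and 773 in the other. Of all genes with transcripts under 750 nucleotides, 46.3% were called higher (40.2% without replicate 1), and of those from 750 to 1000 nucleotides 40.9% (36.4% without it).

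Of 35 genes of the tricarboxylic acid cycle and its entry points, 20 rose, 6 fell and 9 did not pass (19 and 5 without replicate 1, medians 0.16 and 0.12). MPC2, a subunit of the mitochondrial pyruvate carrier, rose to 73.5 ± 7.63 CPM under cyclocreatine, against 40.7 ± 1.85 CPM under vehicle (0.85 ± 0.056 [0.78]). GLUD1, glutamate dehydrogenase, changed by 0.39 ± 0.035 [0.39]. Among 45 carriers and import proteins of the mitochondrion, 18 rose, 5 fell and 22 did not pass (16 and 12 without replicate 1, medians 0.055 and 0.0083; 17 and 8 with the length trend removed), and library totals alone also gave 16 and 12. UCP2, an uncoupling-type carrier of the inner membrane, measured 554, 512, 501 and 505 CPM in the cyclocreatine libraries, against 264, 267, 261 and 268 CPM in the vehicle libraries (0.97 ± 0.036 [0.93]). SLC25A6, an ATP/ADP exchanger with close paralogs and pseudogenes that make its count uncertain, changed by 0.81 ± 0.042 [0.73]. SLC25A12, the aspartate/glutamate carrier, fell to 15.1 ± 0.969 CPM under cyclocreatine, against 41.1 ± 3.01 CPM under vehicle (-1.43 ± 0.072 [-1.43]).

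All 77 tested cytosolic ribosomal protein genes were called higher (median log2 fold change 0.57), and 76 were without replicate 1 (median 0.48). Ribosomal protein genes and EEF1A1 have processed pseudogenes that can share their reads, so that single counts are uncertain. They took 10.25% of all counts in replicate 1 and 8.475% to 8.529% in the other treated libraries, against 6.33% to 6.609% in the vehicle libraries. RPL13A, of the large subunit, measured 788, 656, 654 and 631 CPM in the cyclocreatine libraries, against 342, 363, 376 and 364 CPM in the vehicle libraries (0.92 ± 0.049 [0.84]). RPL14, RPL26 and RPS13 changed by 0.68 ± 0.039 [0.62], 0.64 ± 0.041 [0.58] and 0.63 ± 0.041 [0.56]. RPL22L1, a paralog of RPL22, rose further, with 202, 175, 171 and 164 CPM in the cyclocreatine libraries, against 62.2, 64.7, 63.1 and 62.2 CPM in the vehicle libraries (1.496 ± 0.053 [1.43], adjusted p = 1.3e-23). Of 38 initiation and elongation factors, 24 rose, 3 fell and 11 did not pass (25 and 4 without replicate 1, medians 0.25 and 0.25; 23 and 6 with library totals alone). EEF1A1, which delivers aminoacyl-tRNA to the ribosome, rose to 8762 ± 275 CPM under cyclocreatine, against 5680 ± 176 CPM under vehicle (0.63 ± 0.029 [0.60]). EEF2, the translocase, had 5409 ± 139 CPM under cyclocreatine, against 3628 ± 56.5 CPM under vehicle (0.58 ± 0.028 [0.56]). EIF4B, a helper of the mRNA helicase, changed by 0.48 ± 0.032 [0.49].

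Noncoding hosts of small nucleolar RNAs, whose introns release the RNA guides for ribosomal RNA modification, shared this direction. Of 18 hosts, 13 rose, 2 fell and 3 did not pass (13 and 4 without replicate 1, medians 0.58 and 0.49; 13 and 4 with the length trend removed). SNHG1 measured 319, 301, 302 and 308 CPM under cyclocreatine against 159, 173, 172 and 166 CPM under vehicle (0.88 ± 0.039 [0.86]). ZFAS1 had 368, 281, 299 and 295 CPM under cyclocreatine against 151, 151, 155 and 149.8 CPM under vehicle (1.04 ± 0.054 [0.95]), and in both the groups stood apart. SNHG5 and EPB41L4A-AS1 changed by 1.03 ± 0.058 [0.95] and 1.31 ± 0.07 [1.23], and C6orf48, another snoRNA host, by 1.20 ± 0.051 [1.12]. DANCR, a host that fell, changed by -0.92 ± 0.061 [-0.99]. No source used here gives the strand setting of the counting, so that reads of ZFAS1 and EPB41L4A-AS1 cannot be told apart from those of overlapping genes. Of 76 mitochondrial ribosomal proteins, 47 rose, 6 fell and 23 did not pass (41 and 9 without replicate 1, medians 0.20 and 0.14). MRPL45 rose by 0.64 [0.55] and MRPS15 by 0.52 [0.43]. Of 36 ribosome biogenesis factors, 14 rose, 10 fell and 12 did not pass (12 and 9 without replicate 1, medians 0.0086 and -0.0011; 11 and 6 with the length trend removed), and library totals alone put 8 higher and 17 lower. NPM1, the nucleolar chaperone, rose to 2460 ± 106 CPM under cyclocreatine, against 1745 ± 54.1 CPM under vehicle (0.50 ± 0.032 [0.47]). UBTF and POLR1A, which transcribe ribosomal RNA genes, changed by -0.64 ± 0.041 [-0.68] and -0.51 ± 0.055 [-0.44].

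Many ribosomal protein mRNAs begin with a terminal oligopyrimidine (TOP) tract, a C at the first transcribed base followed by a run of C and T, through which mTORC1 and LARP1 control the translation and stability of their mRNAs. The tract was sought in RefSeq promoters of build GRCh38.p14 (250 bases before and 50 after each annotated start), as a C at the first base with at least 4 pyrimidines after it. A promoter was matched for 11351 of the 14588 genes, or 77.8%. The tract stood at 42 of 63 matched ribosomal protein starts, or 66.7%, at 31% of translation factor starts and at 26.7% of host starts, against 5.42% of all matched genes. Mitochondrial ribosomal proteins, which also rose in large part, had it at 7.04% of starts, and ribosome biogenesis factors at 10.3%. Complexes III and IV and ATP synthase had it at 29%, and lymphoid genes, most of which were not called, at 3 of 8 starts, or 37.5%. The following sequences, the 15 bases before the start and the first 15 transcribed bases, are shown because their genes rose together, with the tract in capitals where it was found:
RPL13A, chr19:49487593-49487622, plus strand: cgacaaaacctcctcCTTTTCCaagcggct
RPL14, chr3:40457324-40457353, plus strand: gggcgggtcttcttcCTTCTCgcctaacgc
RPL26, chr17:8383179-8383208, minus strand: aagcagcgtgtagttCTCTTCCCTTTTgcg
RPS13, chr11:17077653-17077682, minus strand: ttccactctcgctctCCTTTCgttgcctga
RPL22L1, chr3:170870181-170870210, minus strand: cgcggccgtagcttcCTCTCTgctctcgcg
EEF1A1, chr6:73521018-73521047, minus strand: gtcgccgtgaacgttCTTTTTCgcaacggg
EEF2, chr19:3985449-3985478, minus strand: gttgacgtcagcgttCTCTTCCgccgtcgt
EIF4B, chr12:53006441-53006470, plus strand: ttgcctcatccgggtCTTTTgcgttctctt
NPM1, chr5:171387834-171387863, plus strand: cggggagcctgcgtcCTTTCCCTggtgtga
SNHG5, chr6:85678719-85678748, minus strand: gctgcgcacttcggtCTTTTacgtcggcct
ZFAS1, chr20:49278627-49278656, plus strand: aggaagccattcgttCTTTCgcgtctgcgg
C6orf48 (SNHG32 in RefSeq), chr6:31834901-31834930, plus strand: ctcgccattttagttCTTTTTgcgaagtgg
SNHG1, chr11:62855871-62855900, minus strand: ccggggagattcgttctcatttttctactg
The last of them, SNHG1, has no tract by this definition, since an A follows its first 3 bases, and it rose as well. The printed starts were chosen after the values were seen. They carry a tract more often than the lists named above, so they do not stand for all genes that rose. Over all promoters in the RefSeq table the share with a tract was 4.04%, and among matched genes it was 9.23% for those called higher and 3.21% for those called lower.

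Genes with a tract outside 4 of the gene lists were also called higher more often. Leaving out the 4 lists of ribosomal, mitochondrial ribosomal, translation factor and host genes, 41.6% of the 555 genes with a tract were called higher and 19.5% lower, against 25.9% and 30.9% of the 10618 genes without one. Their median log2 fold changes were 0.097 and -0.020, and without replicate 1 they were 0.117 and -0.017. The transcripts were of like length, with medians of 2672 and 2788 nucleotides. These shares describe annotated starts, which can differ from the starts TF-1 uses, and carry no test. The 555 genes still held relatives of the genes left out, such as RPL22L1, C6orf48, NPM1 and EIF2D.

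**Figure D2:**
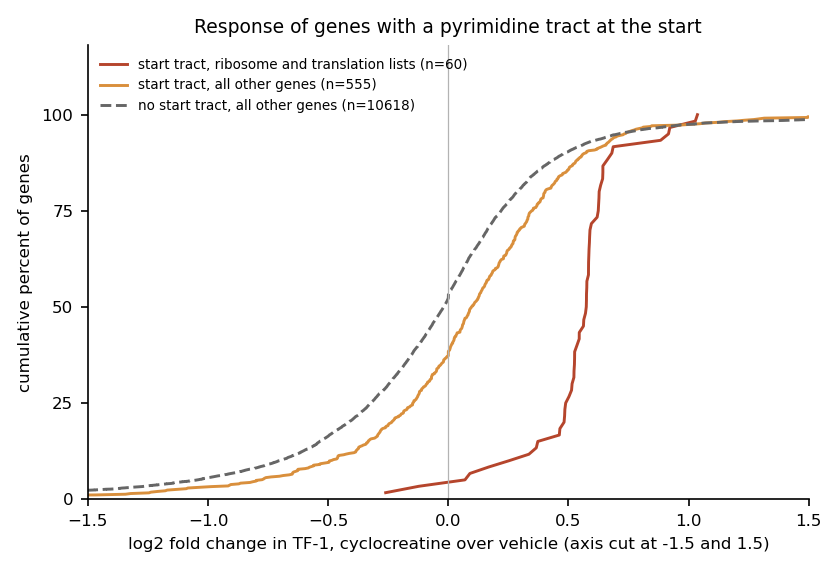
Cumulative percent of genes (vertical axis) by log2 fold change in TF-1, cyclocreatine over vehicle (horizontal axis), for genes with a pyrimidine tract at the annotated start in the ribosome and translation lists (60 genes), for other genes with the tract (555) and for other genes without it (10618). Over most of the range the curve of the 555 genes lies to the right of that of the 10618, with medians of 0.097 and -0.020.

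Genes of phospholipid synthesis from choline and ethanolamine included 2 of the larger decreases. Of 27 tested members, 7 rose, 13 fell and 7 did not pass (7 and 14 without replicate 1, medians -0.33 and -0.24). CHKA and ETNK1, the kinases that commit choline and ethanolamine to phospholipid, had log2 fold changes of -2.16 ± 0.054 [-2.22] and -2.12 ± 0.067 [-2.06]. PCYT2, the next enzyme of the ethanolamine branch, changed by -0.47 ± 0.05 [-0.53], and LPIN1, which makes diacylglycerol for both branches, by -0.87 ± 0.063 [-0.79]. ENPP2, a secreted phospholipase D that acts on lysophosphatidylcholine, was at 24.1, 29, 27.7 and 26.2 CPM under cyclocreatine against 6.39, 5.71, 7.63 and 7.19 CPM under vehicle (1.98 ± 0.075 [2.02]), and the groups stood apart. Among 26 genes of cholesterol synthesis and uptake, 8 rose, 13 fell and 5 did not pass (8 and 13 without replicate 1, medians -0.14 and -0.11), and no single direction held. INSIG1, which retains the sterol sensor SCAP in the endoplasmic reticulum, measured 179, 182, 186 and 176 CPM in the cyclocreatine libraries, against 373, 392, 379 and 379 CPM in the vehicle libraries. None of its treated libraries reached a vehicle library, whereas FDFT1, squalene synthase, changed by 0.43 ± 0.037 [0.40]. Of 20 fatty acid and LXR genes, 3 rose, 10 fell and 7 did not pass (2 and 10 without replicate 1, medians -0.17 and -0.12). SREBF1, the lipogenic transcription factor, fell to 161 ± 10.2 CPM under cyclocreatine, against 287 ± 11 CPM under vehicle (-0.83 ± 0.038 [-0.87]). ACSL5, an acyl-CoA synthetase, changed by -0.9956 ± 0.043 [-1.02] and FASN, fatty acid synthase, by -0.39 ± 0.036 [-0.36].

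Of 19 polyamine genes, 8 rose, 6 fell and 5 did not pass (8 and 6 without replicate 1, medians 0.12 and 0.017). SAT1, which acetylates spermidine and spermine for export, measured 199.9, 160.5, 166 and 164 CPM in the cyclocreatine libraries, against 45.1, 42.1, 48.1 and 51.5 CPM in the vehicle libraries (1.88 ± 0.06 [1.804]), with replicate 1 the highest. AZIN1, the antizyme inhibitor that protects ornithine decarboxylase, fell to 175 ± 16 CPM under cyclocreatine, against 344 ± 8.96 CPM under vehicle (-0.97 ± 0.045 [-0.91]). ODC1 and SRM, which make putrescine and spermidine, changed by 0.28 ± 0.034 [0.26] and 0.37 ± 0.043 [0.31]. SAT1 breaks polyamines down while ODC1 and SRM build them, so called genes on both sides of the pathway rose. Of 18 enzymes of arginine, proline and ornithine, 6 rose, 5 fell and 7 did not pass (5 and 5 without replicate 1, medians 0.081 and 0.10), and 5 and 5 with library totals alone. OAT, ornithine aminotransferase, changed by -0.54 ± 0.035 [-0.56] and ARG2, mitochondrial arginase, by 0.64 ± 0.069 [0.63]. Among 12 genes of osmolyte transport and the osmotic response, 3 rose, 2 fell and 7 did not pass (3 and 2 without replicate 1, medians -0.091 and -0.028), and library totals alone gave 3 and 4. AQP3 and AQP1, membrane channels for water, both fell. AQP3, which also passes glycerol, had 29.8 ± 3.24 CPM under cyclocreatine, against 103 ± 2.26 CPM under vehicle (-1.79 ± 0.061 [-1.82]), and AQP1 changed by -1.58 [-1.49] on the log2 scale. SLC5A3, the myo-inositol importer, changed by 0.34 ± 0.089, or 0.45 without replicate 1, and its groups overlapped with replicate 1 included. SGK1, an ion transport kinase induced by cell shrinkage and by glucocorticoid, was low but rose, with 8.04, 8.81, 8.35 and 7.49 CPM under cyclocreatine against 2.81, 1.81, 1.37 and 3 CPM under vehicle (1.85 ± 0.16 [1.86]).

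Of 23 amino acid transporters, 4 rose, 13 fell and 6 did not pass (3 and 12 without replicate 1, medians -0.23 and -0.39). SLC38A1, a glutamine importer, fell to 28.5 ± 3.61 CPM under cyclocreatine, against 91.3 ± 5.01 CPM under vehicle (-1.67 ± 0.058 [-1.60], adjusted p = 5.4e-23). SLC7A8 and SLC1A5, carriers of neutral amino acids, changed by -1.37 ± 0.067 [-1.36] and -0.50 ± 0.038 [-0.54]. SLC6A9, a glycine importer that erythroid cells use, changed by -1.72 ± 0.13 [-1.63]. The list of 21 regulators and targets of the integrated stress response, in which ATF4 drives amino acid genes, also had more members lower than higher: 3 rose, 11 fell and 7 did not pass (3 and 10 without replicate 1, medians -0.19 and -0.16; 1 and 14 with library totals alone). TRIB3, a pseudokinase target of ATF4, measured 44.6, 44.9, 43.7 and 39.6 CPM under cyclocreatine against 74.5, 77.8, 79.3 and 82.3 CPM under vehicle (-0.86 ± 0.054 [-0.88]). ATF5 and ASNS, a related factor and asparagine synthetase, changed by -0.73 ± 0.061 [-0.76] and -0.57 ± 0.06 [-0.61]. CHAC1, which degrades glutathione, changed by -1.54 ± 0.19 [-1.75] at a low level. DDIT3, the CHOP factor, went against them with 16.9, 11.9, 10.8 and 12.3 CPM in the cyclocreatine libraries, against 7.99, 6.79, 5.12 and 6.95 CPM in the vehicle libraries (0.96 ± 0.13 [0.81]). Of 20 cytosolic aminoacyl-tRNA synthetases, 5 rose, 11 fell and 4 did not pass (5 and 11 without replicate 1, medians -0.099 and -0.13; 2 and 13 with library totals alone). WARS fell to 196 ± 8.99 CPM under cyclocreatine, against 360.5 ± 4.68 CPM under vehicle (-0.88 ± 0.033 [-0.88]), MARS changed by -0.55 ± 0.036 [-0.55] and QARS by 0.41 ± 0.032 [0.40]. Of 23 serine, one-carbon and transsulfuration enzymes, 7 rose, 9 fell and 7 did not pass (7 and 11 without replicate 1, medians -0.07 and -0.077). CBS, which starts transsulfuration, changed by -1.16 [-1.17], and SHMT2, the mitochondrial serine hydroxymethyltransferase, by 0.52 [0.45].

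Of 29 genes of the endoplasmic reticulum unfolded protein response, 11 rose, 5 fell and 13 did not pass (10 and 5 without replicate 1, medians 0.077 and 0.041), a balance that turned to 8 and 10 with library totals alone. HSPA5, the BiP chaperone of that compartment, measured 877, 886, 864 and 798 CPM under cyclocreatine against 612, 632, 640.1 and 617 CPM under vehicle (0.45 ± 0.032 [0.44]). PDIA4, a disulfide isomerase, changed by 0.80 ± 0.045 [0.78]. Of 31 heat shock chaperones, 10 rose, 13 fell and 8 did not pass (10 and 15 without replicate 1, medians -0.064 and -0.071; 5 and 15 with library totals alone). HSPA6, a strictly inducible member at low level, changed by -2.30 ± 0.26 [-2.60] and HSPB1, the small heat shock protein, by 0.48 ± 0.069, or 0.36 without replicate 1. Of 27 NRF2 targets and aldo-keto reductases, 13 rose, 9 fell and 5 did not pass (13 and 8 without replicate 1, medians 0.071 and 0.12), with equal counts of 11 and 11 under library totals alone. AKR1C1 and AKR1C3, steroid-reducing enzymes whose close homology makes single counts uncertain, changed by 1.30 ± 0.047 [1.26] and 1.07 ± 0.069 [1.02]. PRDX1, a peroxidase, changed by 0.46 ± 0.04 [0.39] and SRXN1, which repairs peroxiredoxins, by -0.68 ± 0.045 [-0.66]. Of 6 tested metallothionein and zinc genes, 0 rose, 1 fell and 5 did not pass (0 and 2 without replicate 1, medians -0.36 and -0.33; 0 and 2 with library totals alone), and the called one was SLC30A1, a zinc exporter (-0.53 [-0.42]).

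TF-1 depends on cytokine receptors that signal through JAK2 and STAT5, and several of these fell. Of 24 growth factor receptors, 7 rose, 10 fell and 7 did not pass (7 and 10 without replicate 1, medians -0.18 and -0.16). CSF2RB, the common beta chain of the receptors for GM-CSF, IL-3 and IL-5, measured 180.3, 218, 209.7 and 208 CPM in the cyclocreatine libraries, against 292, 291, 313 and 289.6 CPM in the vehicle libraries (-0.54 ± 0.04 [-0.49]). CSF2RA, its GM-CSF partner, changed by -0.54 ± 0.089 [-0.52] and EPOR, the erythropoietin receptor, by -0.42 ± 0.058 [-0.43]. CSF3R, the G-CSF receptor, and IL6R, the IL-6 receptor, were higher, by 1.66 [1.54] and 0.51 [0.59]. Among 24 pathway members and targets, 3 rose, 12 fell and 9 did not pass (5 and 13 without replicate 1, medians -0.19 and -0.14; 1 and 17 with library totals alone; 6 and 11 with the length trend removed). The survival kinases PIM1 and PIM2, transcribed in response to STAT5, fell. PIM1 measured 438, 395, 402 and 423 CPM under cyclocreatine against 788, 816, 842 and 829.6 CPM under vehicle (-0.98 ± 0.034 [-1.01]). PIM2 changed by -1.002 ± 0.045 [-1.02]. OSM, a cytokine induced by STAT5, changed by -1.43 ± 0.11 [-1.57].

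Lists of feedback genes and immediate early factors also had more members lower than higher. Of 23 MAPK feedback genes, 2 rose, 10 fell and 11 did not pass (3 and 9 without replicate 1, medians -0.27 and -0.26). Of 18 AP-1 and EGR factors, 3 rose, 9 fell and 6 did not pass (3 and 9 without replicate 1, medians -0.22 and -0.32). Of 16 KLF and NR4A factors, 2 rose, 10 fell and 4 did not pass (2 and 10 without replicate 1, medians -0.39 and -0.35). CCND1, cyclin D1, fell to 24.2 ± 2.5 CPM under cyclocreatine, against 59.3 ± 3.09 CPM under vehicle (-1.30 ± 0.064 [-1.35]). ETV4, an ETS factor downstream of MAPK, changed by -0.89 ± 0.086 [-0.96]. DUSP10, a phosphatase of JNK and p38, was higher (1.04 [1.02]). SRF, the serum response factor, fell to 48.8 ± 2.09 CPM under cyclocreatine, against 80.1 ± 5.42 CPM under vehicle (-0.72 ± 0.049 [-0.74]). JUNB and IER5 changed by -0.90 [-0.98] and -1.08 [-1.20], and FOSL2 and EGR1 were called higher (0.73 [0.80] and 0.87 [0.95]). Both NR4A receptors named were low: NR4A1 measured 1.52, 1.19, 2.29 and 1.85 CPM under cyclocreatine against 3.58, 3.76, 4.71 and 4.01 CPM under vehicle, and NR4A2 changed in the opposite direction, by 1.41 ± 0.18 [1.46]. Of 23 NF-kB genes, 7 rose, 4 fell and 12 did not pass (9 and 5 without replicate 1, medians 0.067 and 0.052). NFKB1, the p105 precursor, rose to 147 ± 8.48 CPM under cyclocreatine, against 85 ± 2.94 CPM under vehicle (0.79 ± 0.046 [0.81]). Its inhibitor NFKBIA (0.80 [0.80]) and IL1B, interleukin 1 beta (0.36 [0.34]), rose as well. Of 11 glucocorticoid-type targets, 2 rose, 6 fell and 3 did not pass (2 and 6 without replicate 1, medians -0.18 and -0.16), with PER1, a clock repressor, at 0.77 [0.77] and TSC22D3, the glucocorticoid-induced leucine zipper, at -1.05 [-1.11]. Of 20 FOXO factors and targets, 6 rose, 7 fell and 7 did not pass (9 and 6 without replicate 1, medians 0.089 and 0.098), so the larger side depended on that library. FOXO3 changed by -0.46 ± 0.047 [-0.42], and PINK1, a kinase of mitochondrial quality control, by 0.87 ± 0.096 [0.89].

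Called cell cycle genes stood on both sides. Of 43 genes of G1/S and DNA replication, 19 rose, 18 fell and 6 did not pass (17 and 18 without replicate 1, medians 0.025 and 0.023), and 15 and 20 with library totals alone, so that the larger side depended on scaling and on replicate 1. ORC1, of the origin recognition complex, rose to 106 ± 2.44 CPM under cyclocreatine, against 67.2 ± 0.685 CPM under vehicle (0.66 ± 0.039 [0.67]). CDT1, which loads the MCM helicase, changed by 0.50 ± 0.044 [0.44], and POLA1, the catalytic subunit of polymerase alpha, by -0.82 ± 0.067 [-0.74]. Of 40 genes of G2/M and mitosis, 22 rose, 7 fell and 11 did not pass (21 and 7 without replicate 1, medians 0.12 and 0.10), and 10 and 8 with library totals alone. CDC20, an activator of the anaphase-promoting complex, changed by 0.43 ± 0.046 [0.36], whereas CENPE, a kinetochore motor with a long transcript, changed by -1.02 ± 0.069, or -0.92 without replicate 1. Of 16 CDK inhibitors, D cyclins and G1 kinases, 5 rose, 7 fell and 4 did not pass (5 and 6 without replicate 1, medians 0.019 and 0.0079). CDK4 changed by 0.39 ± 0.037 [0.35]. The inhibitor CDKN1A, p21, was low and fell, with 2.66, 3.98, 4.5 and 4.34 CPM under cyclocreatine against 9.07, 8.47, 7.09 and 7.97 CPM under vehicle (-1.07 ± 0.12 [-0.92]).

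CCNG1, cyclin G1, changed by 0.56 ± 0.034 [0.59] and DDB2, a sensor of ultraviolet damage, by 0.84 ± 0.084 [0.89]. Of 19 BCL2 family members, 2 rose, 8 fell and 9 did not pass (3 and 9 without replicate 1, medians -0.21 and -0.20), among them BNIP3, a mitophagy receptor (-0.41 [-0.42]), and BIK, a pro-apoptotic member (-1.14 [-1.20]). Of 29 genes of homologous recombination and the Fanconi pathway, 7 rose, 12 fell and 10 did not pass (9 and 10 without replicate 1, medians 0.017 and 0.035). BRCA1 fell to 31.5 ± 2.69 CPM under cyclocreatine, against 59.2 ± 1.9 CPM under vehicle (-0.91 ± 0.057 [-0.91]). FANCG changed by 0.63 ± 0.06 [0.60], and RAD52, a recombination mediator outside that list, by 1.52 ± 0.081 [1.504]. Of 27 genes of nucleotide synthesis, 9 rose, 5 fell and 13 did not pass (10 and 6 without replicate 1, medians 0.025 and 0.013), and 6 and 8 with library totals alone. CAD, which starts pyrimidine synthesis, changed by 0.40 ± 0.039 [0.44] and PFAS, of purine synthesis, by -0.40 ± 0.037 [-0.39]. Of 39 proteasome subunits, 15 rose, 13 fell and 11 did not pass (13 and 15 without replicate 1, medians 0.0054 and -0.041), and 11 and 18 with library totals alone. PSMB6 of the catalytic core changed by 0.48 [0.42] and PSMD4, a ubiquitin receptor, by -0.45 [-0.54]. Of 42 autophagy, lysosome and mTORC1 genes, 14 rose, 13 fell and 15 did not pass (14 and 14 without replicate 1, medians 0.014 and 0.0088; 14 and 8 with the length trend removed), and 12 and 15 with library totals alone. CTSD, a lysosomal protease, changed by 0.39 ± 0.047 [0.31] and SQSTM1, the p62 receptor, by -0.51 ± 0.035 [-0.52]. No direction can be given for the nucleotide synthesis, proteasome and autophagy lists, since their larger side depended on the scaling.

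Of 37 genes of red cells, 12 rose, 20 fell and 5 did not pass (10 and 21 without replicate 1, medians -0.20 and -0.25). TFRC, the transferrin receptor that brings iron into the cell, measured 2032, 2586, 2511 and 2352 CPM in the cyclocreatine libraries, against 5313, 5103, 5526 and 5225 CPM in the vehicle libraries. The groups stood apart, with replicate 1 the lowest (-1.16 ± 0.044, or -1.09 without it). SLC4A1, band 3 of the red cell membrane, fell to 8.22 ± 1.26 CPM under cyclocreatine, against 25.1 ± 2.09 CPM under vehicle (-1.61 ± 0.11 [-1.64]). RHAG, a membrane glycoprotein, changed by 0.56 ± 0.033 [0.56]. Of 19 globin and heme genes, 6 rose, 9 fell and 4 did not pass (3 and 11 without replicate 1, medians -0.10 and -0.16; 2 and 9 with library totals alone; 3 and 10 with the length trend removed). HBB, adult beta globin, changed by 0.45 ± 0.075, or 0.39 without replicate 1. Of 29 platelet and megakaryocyte genes, 3 rose, 18 fell and 8 did not pass (3 and 18 without replicate 1, medians -0.47 and -0.42). ITGB3, integrin beta 3, fell to 22.9 ± 1.93 CPM under cyclocreatine, against 55.9 ± 5.5 CPM under vehicle (-1.28 ± 0.066 [-1.27]). THBS1, thrombospondin (-1.64 [-1.71]), and C6orf25, an inhibitory platelet receptor (-0.64 [-0.62]), fell as well. ITGA2B, the alpha subunit that pairs with ITGB3, went the other way with 997, 896, 944 and 961 CPM in the cyclocreatine libraries, against 586, 559, 576 and 578 CPM in the vehicle libraries (0.72 ± 0.031 [0.70]).

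Of 23 granulocyte and monocyte genes, 10 rose, 4 fell and 9 did not pass (9 and 4 without replicate 1, medians 0.14 and 0.15). CEBPA, the myeloid transcription factor, rose to 63.7 ± 4.58 CPM under cyclocreatine, against 36.3 ± 3.41 CPM under vehicle (0.81 ± 0.058 [0.76]). LYZ, lysozyme, changed by 0.33 ± 0.045 [0.32]. The 8 markers of monocytes and granulocytes summed to 208.5 to 216.2 CPM under cyclocreatine and 174.1 to 178 CPM under vehicle, nearly all from LYZ and ITGAM, the only 2 averaging 1 CPM or more, while S100A8 and ELANE were at 0 in all 8 libraries. Markers of lymphocytes summed to 3.914 to 5.57 CPM under cyclocreatine and 4.153 to 5.51 CPM under vehicle (1 of 8 at 1 CPM or more, MS4A1 at 0 throughout). Those of stroma and epithelium summed to 3.635 to 4.43 CPM under cyclocreatine and 1.277 to 3.055 CPM under vehicle (2 of 8, COL1A1 and EPCAM, with KRT19 at 0 throughout), and the part of these low signals in the results was not tested. Of 15 lymphoid genes, 1 rose, 4 fell and 10 did not pass (1 and 3 without replicate 1, medians -0.11 and -0.082). Of 10 stromal and epithelial ones, 2 rose, 1 fell and 7 did not pass (2 and 2 without replicate 1, medians 0.11 and 0.13). Of 24 stem and progenitor factors, 5 rose, 9 fell and 10 did not pass (4 and 9 without replicate 1, medians -0.059 and -0.019). ERG, an ETS factor of stem cells, measured 92.8, 102, 108 and 114 CPM in the cyclocreatine libraries, against 54.6, 51.1, 53.4 and 56.7 CPM in the vehicle libraries (0.95 ± 0.051 [1.01]). RUNX1 changed by -0.49 ± 0.037 [-0.47]. Of 19 tested HOX genes, 2 rose, 5 fell and 12 did not pass (2 and 6 without replicate 1, medians -0.10 and -0.14; 1 and 8 with library totals alone). HOXB9 fell to 20.7 ± 1.57 CPM under cyclocreatine, against 64.1 ± 3.5 CPM under vehicle (-1.63 ± 0.077 [-1.60]).

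Of 40 interferon-stimulated genes, 2 rose, 24 fell and 14 did not pass (3 and 24 without replicate 1, medians -0.49 and -0.53; 4 and 25 with the length trend removed). IFITM1, a membrane restriction factor, measured 123, 99.4, 99.95 and 93.3 CPM in the cyclocreatine libraries, against 190.2, 174, 177 and 165 CPM in the vehicle libraries (-0.77 ± 0.056 [-0.86]). IFIT3 and IFIT2, tetratricopeptide effectors, changed by -1.06 ± 0.099 [-1.04] and -2.45 ± 0.23 [-2.20], the second at a low level. GBP2, a guanylate-binding GTPase, was one of the 2 that rose, with 10.2, 14.2, 11.6 and 15.5 CPM under cyclocreatine against 3.83, 3.96, 4.17 and 4.07 CPM under vehicle (1.69 ± 0.14 [1.79]). Matches to the GAS element TTCNNNGAA, the site that STAT dimers bind, were read once for both strands, since it is its own reverse complement. Such matches lay in 8 of the 29 promoters matched for this list, or 27.6%. The share was 6.44% of all matched genes and 7.88% of all RefSeq promoters listed. No other interferon-response element was sought, so overlap of these matches with one was not tested. The 5 matches printed here, in capitals, lie in promoters of genes that fell, chosen after their values were seen: IFITM1, IRF9 (-0.77 [-0.73]), IFI27 (-1.65 [-1.64]), IFI35 (-0.51 [-0.55]) and BST2 (-0.31 [-0.40]). They are matches of letters, not sites known to be bound:
IFITM1, chr11:314018-314046, plus strand: aaatacacacTTCTGAGAAactgaaacga
IRF9, chr14:24161192-24161220, plus strand: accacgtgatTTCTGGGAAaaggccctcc
IFI27, chr14:94110625-94110653, plus strand: cagtttcggtTTCCTGGAAaatgaaacct
IFI35, chr17:43006752-43006780, plus strand: aggcagggatTTCACGGAAatgaaagtgg
BST2, chr19:17405748-17405776, minus strand: cccacctcctTTCTGGGAAactgaaactg
GAS matches lay in 6.01% of promoters of all genes called higher and in 7.13% of those called lower. Other motifs were searched on both strands, the AP-1 site TGAGTCA and the CRE TGACGTCA differing by 1 inserted base. The E-box CACGTG, the AP-1 site, the CRE, the forkhead element GTAAACA and the CHOP and ATF4 element TGATGCAAT lay in 10.8%, 2.86%, 3.12%, 1.77% and 0.0965% of the promoters of genes called higher. In those called lower the shares were 9.19%, 3.36%, 3.42%, 2.42% and 0.206%, in all matched genes 9.99%, 3.14%, 3.13%, 2.24% and 0.123%, and over all RefSeq promoters listed 7.43%, 4.92%, 1.98%, 3.41% and 0.264%.

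Of 24 HLA and antigen presentation genes, 15 rose, 5 fell and 4 did not pass (15 and 5 without replicate 1, medians 0.33 and 0.30). B2M and HLA-DRA changed by 0.48 ± 0.036 [0.44] and 0.57 ± 0.045 [0.52], and TAP1, the peptide transporter, by -0.95 ± 0.099 [-0.99]. HLA genes are polymorphic and alike in sequence, so their single counts are uncertain.

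Of 30 histone genes, 3 rose, 7 fell and 20 did not pass (3 and 8 without replicate 1, medians -0.25 and -0.24). H1F0, a linker histone of quiescent and differentiating cells, measured 108, 102, 105 and 107 CPM in the cyclocreatine libraries, against 361, 367, 353 and 357 CPM in the vehicle libraries, with no overlap (-1.77 ± 0.04, or -1.78 without replicate 1). H1FX, another linker histone, changed by -1.19 ± 0.075 [-1.28], and H2AFX, the damage-marking variant, by 0.47 ± 0.049 [0.41]. Of 47 chromatin writers and erasers, 14 rose, 19 fell and 14 did not pass (17 and 19 without replicate 1, medians -0.08 and -0.054), and 18 and 17 with the length trend removed. HDAC1, a nuclear histone deacetylase, measured 58.9, 52.5, 61.5 and 57.7 CPM in the cyclocreatine libraries, against 118.1, 124, 128 and 119.7 CPM in the vehicle libraries (-1.08 ± 0.042 [-1.09]). HDAC5 fell to 10.8 ± 1.14 CPM under cyclocreatine, against 27 ± 2.47 CPM under vehicle (-1.32 ± 0.076 [-1.37]). DNMT1, the maintenance DNA methyltransferase, and EED, of the Polycomb complex PRC2, changed by 0.37 ± 0.032 [0.40] and 0.54 ± 0.049 [0.51].

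**Figure D3:**
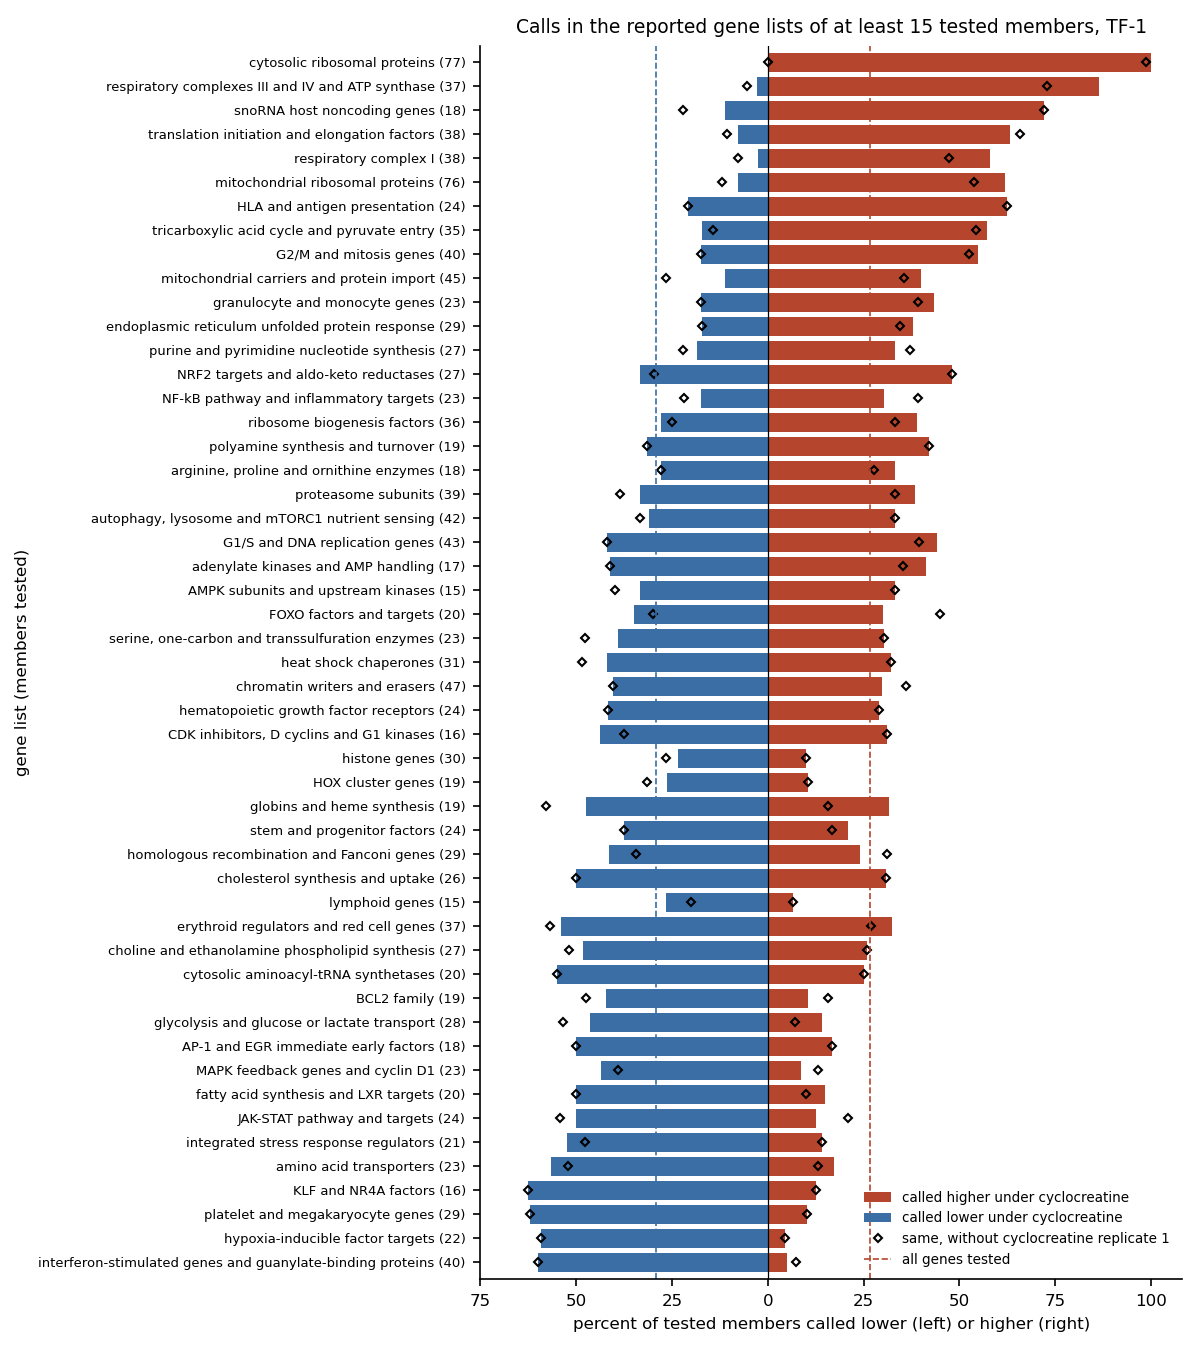
Percent of tested members called higher (bars to the right) or lower (bars to the left) under cyclocreatine in the reported gene lists of at least 15 tested members, diamonds giving the same without cyclocreatine replicate 1 and dashed lines the share over all genes tested (26.7% and 29.3%). Cytosolic ribosomal proteins reach 100% at the top, and the interferon-stimulated genes at the bottom have 24 of 40 members called lower.

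Genes ranked 11 to 20 by fold change in each direction included several transcription factors and growth factors. SOX4, a transcription factor of progenitor cells, measured 181, 218, 210.2 and 199 CPM in the cyclocreatine libraries, against 66.2, 72.4, 70.8 and 64.2 CPM in the vehicle libraries (1.56 ± 0.05 [1.61], adjusted p = 6.8e-25). GATA3, a lymphoid transcription factor, was low and rose, with 12.7, 9.86, 11.2 and 11 CPM under cyclocreatine against 4.41, 4.91, 4.23 and 3.29 CPM under vehicle (1.42 ± 0.13 [1.35]). RGS2, a brake on G protein signalling, changed by 1.502 ± 0.11 [1.44]. HOMER3, a scaffold protein, ZNF467, a zinc finger factor, NT5M, a mitochondrial nucleotidase, METTL12, a mitochondrial methyltransferase, and LOC100288152 changed by 1.54 [1.42], 1.52 [1.49], 1.41 [1.34], 1.495 [1.47] and 1.5 [1.501]. Of genes averaging 100 CPM or more, CUL7, a cullin of ubiquitin ligases, measured 184, 181, 189 and 192 CPM under cyclocreatine against 87.6, 91, 85.2 and 89 CPM under vehicle (1.08 ± 0.04 [1.09]). MAN2C1, a cytosolic mannosidase, and LOC100506548 changed by 1.05 ± 0.044 [1.03] and 1.08 ± 0.043 [1.06]. In each of these the 4 treated libraries lay above the 4 vehicle libraries.

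On the lower side, FGF2 and FGF11, growth factors of the FGF family, changed by -1.78 ± 0.22 [-1.62] and -1.82 ± 0.13 [-1.92], and SELP, P-selectin, by -1.78 ± 0.14 [-1.798]. DGKA, a diacylglycerol kinase, SH2D1B, a signalling adaptor, BEX2 and FAM212B changed by -1.87 [-1.83], -1.89 [-1.96], -1.804 [-1.796] and -1.73 [-1.68]. FAM83A had 73, 65.5, 71.4 and 71 CPM under cyclocreatine against 190.2, 191, 204 and 196 CPM under vehicle (-1.48 ± 0.054 [-1.495]). LINC00657, the noncoding RNA NORAD that binds Pumilio proteins, fell to 226 ± 26.5 CPM under cyclocreatine, against 496 ± 10.2 CPM under vehicle (-1.13 ± 0.052, or -1.05 without replicate 1). PTRF, the caveolar coat protein cavin-1, MAVS, the adaptor of viral RNA sensing, and IDS, a lysosomal sulfatase, changed by -1.12 ± 0.039 [-1.13], -1.09 ± 0.057 [-1.01] and -1.03 ± 0.049 [-0.98], and none of their treated libraries reached a vehicle library.

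**Figure D4:**
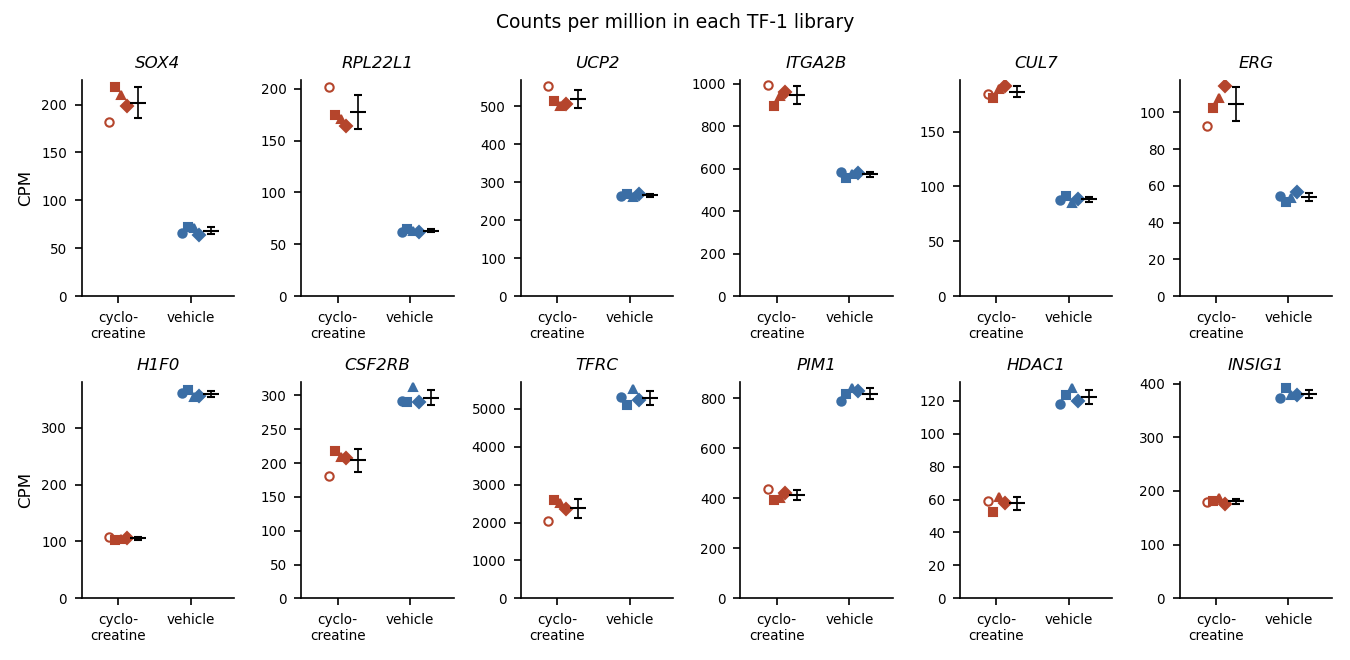
CPM (vertical axes, from 0) in each TF-1 library for 12 genes, cyclocreatine to the left and vehicle to the right, with replicate 1 of cyclocreatine as an open circle and mean ± SD (n = 4) beside the points. In all 12 genes the groups are apart, and replicate 1 is the highest treated library for RPL22L1 and the lowest for TFRC.

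Leaving out replicate 1 moved the log2 fold change of the named genes averaging 20 CPM or more by at most 0.24. The 5 it raised most had annotated transcripts of 3807 nucleotides (RC3H2) to 10707 nucleotides (VPS13A). NCR3LG1, a ligand of an activating receptor of natural killer cells, measured 8.92, 23.2, 25.2 and 21 CPM under cyclocreatine against 52.1, 42.5, 41.6 and 45.6 CPM under vehicle. Its log2 fold change was -1.22 with replicate 1 and -0.98 without it. For VPS13A, a lipid transfer protein, the values were 33.1, 68.4, 64.1 and 68.5 CPM under cyclocreatine against 86, 70.4, 75.9 and 76.7 CPM under vehicle (-0.40 ± 0.14 [-0.20]), and for MAN1A2, a Golgi mannosidase, the change was -0.38 with and -0.17 without. Both were called lower, but missed the threshold with TF-1 fitted alone (adjusted p = 0.108 and 0.156 by edgeR) and without vehicle replicate 1 (0.0729 and 0.0588). MAN1A2 also missed it without vehicle replicate 3 or 4 (0.0801 and 0.0612) and with no filter on low counts (0.0547). VPS13A also missed it with a term for replicate number in the edgeR fit (0.0603). RC3H2, an RNA-binding ubiquitin ligase, and UBXN7, a p97 cofactor, moved likewise, RC3H2 with -0.73 and -0.54 and UBXN7 with -0.31 and -0.12. UBXN7 passed neither with replicate 1 (edgeR adjusted p = 0.0623) nor without it (edgeR adjusted p = 0.0579), but did with limma-voom on all libraries (adjusted p = 0.0104). Genes whose values it lowered had short transcripts where a length was known, 498 nucleotides for ROMO1, 712.5 for RPS10, 726.5 for DNPH1 and 1412 for ZNF428. DNPH1, a nucleotide hydrolase, measured 104, 61, 71.2 and 66.9 CPM under cyclocreatine against 57.1, 66.7, 64.6 and 55.6 CPM under vehicle, was called with replicate 1 (0.31, adjusted p = 0.0166) and did not pass without it (0.12, adjusted p = 0.0631). ZNF428 did not pass with it (-0.16, adjusted p = 0.174) and fell without it (-0.34, adjusted p = 3.5e-05). RPS10, which has close copies, ROMO1, a mitochondrial membrane protein, and NAT6, an acetyltransferase, kept their call at smaller sizes, 0.58 and 0.36, 0.51 and 0.33, and 0.36 and 0.18.

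The TF-1 response was also set against that of the other lines. UT-7, a megakaryoblastic line that also needs a growth factor, and UCSD-AML1, with a chromosome 3 rearrangement at MECOM, received the same dose for the same time. A test of the difference between the 2 effects called 4011 genes for TF-1 against UT-7, or 27.5% of those tested, and 4242 for TF-1 against UCSD-AML1, or 29.1%. Without replicate 1 it called 4266 and 4906. The remaining counts of this paragraph are given with all libraries only. Both tests use the TF-1 libraries, and 1765 genes passed both with the same sign, 950 with the TF-1 value higher and 815 with it lower. Of the genes called in TF-1, 4336 were called with the same sign in UT-7, which is 53.1% of the TF-1 calls and 64.8% of those of UT-7, and 421 with the opposite sign. For UCSD-AML1 the same-sign count was 3711, or 45.4% and 62.9%, with 443 opposite.

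Some of the largest differences were in genes that TF-1 raised. CRISP3, a secreted granule protein, had log2 fold changes of 1.03 [1.06] (TF-1), -0.17 (UT-7) and 0.19 (UCSD-AML1), and GM2A, the lysosomal activator of ganglioside breakdown, of 0.98 [0.98], 0.15 and -0.0085. In TF-1, CRISP3 measured 94.8, 101, 107 and 99.8 CPM under cyclocreatine against 45.8, 51.3, 50.5 and 49.3 CPM under vehicle. GM2A had 266, 256, 265 and 276 CPM under cyclocreatine against 137, 135, 136 and 131 CPM under vehicle. SLA, an adaptor that dampens receptor signalling, changed by 1.30 [1.29], 0.41 and 0.20 in the same order of lines, and RPL22L1 by 1.496 [1.43], 0.67 and 0.42. JADE1, of a histone acetylation complex, SLC25A42, the mitochondrial coenzyme A carrier, UQCC3, an assembly factor of complex III, and SNORD47, a small nucleolar RNA from within GAS5, rose in TF-1 by 0.71 [0.69], 0.65 [0.63], 0.70 [0.55] and 0.89 [0.90]. None of the last 4 was called higher in UT-7 or UCSD-AML1. Passing the test of the difference against both lines was a condition for naming these genes. The same holds for those of the next paragraph, apart from NR4A1 and TSC22D3.

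Among genes with a lower TF-1 value, INSIG1 had -1.07 [-1.07] in TF-1, against 0.045 in UT-7 (adjusted p = 0.404) and -0.0021 in UCSD-AML1 (adjusted p = 1), and the differences of -1.12 and -1.07 both passed. TRIB1, a pseudokinase that targets CEBPA for decay, changed by -1.34 [-1.37] in TF-1, against -0.33 for UT-7 and -0.22 for UCSD-AML1. PPP2R5B, a regulatory subunit of phosphatase 2A, PPFIA3, a synaptic scaffold, ZNF780B and BRSK1, a kinase of the AMPK family, changed by -1.60 [-1.69], -1.31 [-1.26], -1.45 [-1.36] and -0.94 [-1.16] in TF-1. Some of the named genes went opposite ways. CDKN1C, the CDK inhibitor p57, fell in TF-1 with 34.9, 27.1, 30.1 and 32.2 CPM under cyclocreatine against 38, 37.2, 38 and 36.4 CPM under vehicle (-0.26 [-0.32]) and rose in UT-7 (1.44) and UCSD-AML1 (0.68). In the same order of lines, BASP1, a membrane protein, changed by -0.80 [-0.80], 0.60 and 0.25, NR4A1 by -1.23 [-1.18], 0.80 and 2.25, and TSC22D3 by -1.05 [-1.11], 0.89 and 2.11, each called in all 3 lines. NR4A1 and TSC22D3 were taken up here after their values were seen.

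**Figure D5:**
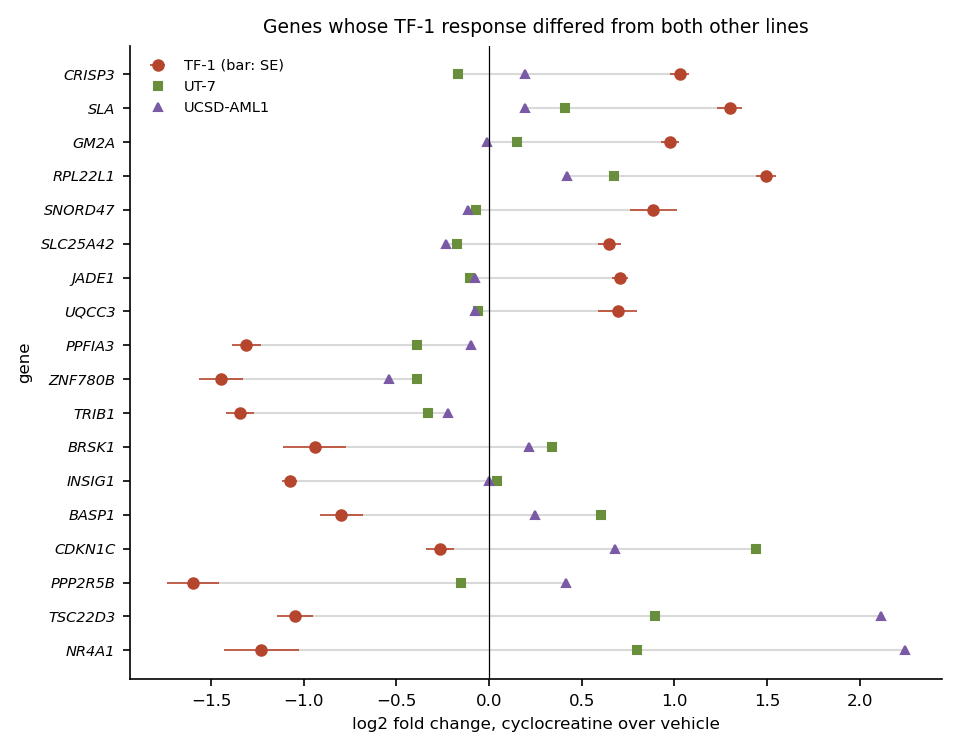
Log2 fold change of cyclocreatine over vehicle (horizontal axis) in TF-1 (circles, bars SE), UT-7 (squares) and UCSD-AML1 (triangles) for 18 genes whose TF-1 response differed from both other lines. Genes from CRISP3 to UQCC3 were higher in TF-1, those from PPFIA3 to NR4A1 lower, and CDKN1C, BASP1, TSC22D3 and NR4A1 were below 0 in TF-1 and above 0 in both other lines.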

How the data were processed

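The study deposited gene-level counts for each library, from total RNA sequenced on Illumina HiSeq per the labels' protocols. Per the submitters' processing notes, the authors used FastQC, TopHat2 and RSEM with builds GRCh37 and hg19. The deposited counts are whole numbers per gene symbol (25728 genes), and no source used here gives their strand setting. Groups are the line and treatment in the labels.

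With edgeR 4.0.16 in R 4.3.3, genes passing filterByExpr (minimum count 10, minimum total 15) were fitted over all 24 libraries with 1 mean per group, TMM scaling and the quasi-likelihood test, with Benjamini-Hochberg adjustment over 14588 genes. The contrast was cyclocreatine minus vehicle in TF-1, and differences between lines were tested as interaction terms. SEs were taken as the log2 fold change divided by the square root of F and are approximate. The median biological coefficient of variation was 0.0578. On simulated counts the test called 98% of changes of 0.5 and 100% of changes of 1 on the log2 scale. Those changes were set in genes from 5 CPM, with the same spread for every gene and no departing library. Genes at lower levels were not covered. CPM holds the TMM factors. Alternatives were limma-voom (limma 3.58.1), DESeq2 1.42.0, other scalings and filters, a correction for transcript length, each TF-1 library left out, and TF-1 alone. RefSeq promoters supplied sequences, which are on GRCh38.p14.

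The libraries and gene lists were chosen with earlier results of these data known. Named genes were the 20 largest changes in each direction (from 5 CPM), the 10 largest from 100 CPM, up to 6 per list (from 1 CPM), the 8 largest differences from both other lines and the 5 most moved by replicate 1 (from 20 CPM) on each side, less those not described here. No identical libraries were found. Some genes are not reported here.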

Additional observations from a re-analysis of the deposited data

Results flagged for a closer look

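Cyclocreatine replicate 1 lay far from the other 3 treated libraries in its share of ribosomal protein counts (10.25%), in its count-weighted mean transcript length (3050 nucleotides) and in the SD of its log2 departure from the group (0.243). In 25 of 428 gene groups of 4 libraries, the gap between 1 library and its nearest neighbour, as a share of the range, passed Dixon's 95% critical value, and chance gives about 1 in 20. In 12 of them the library was cyclocreatine replicate 1, which was high for GAMT (17.72 CPM), SAT1 (199.9 CPM), COX7C (396 CPM), SLC25A6 (2953 CPM), RPL13A (788.2 CPM), RPL14 (1148 CPM), AKR1C1 (180.1 CPM), HLA-DRA (184.9 CPM), UQCC3 (33.16 CPM), CTSD (228.3 CPM) and CDT1 (250.4 CPM) and low for VPS13A (33.1 CPM). Other treated libraries stood apart for TXNIP (replicate 2, 646.3 CPM), METTL12 (replicate 2, 5.242 CPM) and SLC4A1 (replicate 3, 6.354 CPM).

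Vehicle replicate 1 stood apart for NPM1 (1664 CPM). Vehicle replicate 2 did so for ODC1 (869.2 CPM), NFKB1 (80.64 CPM) and DNMT1 (481 CPM). Vehicle replicate 3 did so for CKM (13.64 CPM), UQCRB (173.8 CPM), SHMT2 (161.3 CPM) and CSF2RB (312.9 CPM), and vehicle replicate 4 for SNHG5 (46.06 CPM) and RGS2 (5.271 CPM).

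The TF-1 response differed from that of both other lines, by the edgeR test of the difference, in 18 named genes. They were chosen for passing that test, or, for NR4A1 and TSC22D3, after their values were seen. Their passing is therefore no further result. Differences are log2 fold changes in TF-1 minus those in the other line, UT-7 first and UCSD-AML1 second. Above 0 were SNORD47 (0.9569 and 1.003), SLA (0.8899 and 1.102), CRISP3 (1.199 and 0.8371), GM2A (0.8257 and 0.9861) and SLC25A42 (0.8221 and 0.8808). So were RPL22L1 (0.8212 and 1.076), JADE1 (0.8098 and 0.7825) and UQCC3 (0.7556 and 0.7735). Below 0 were PPP2R5B (-1.447 and -2.011), BRSK1 (-1.281 and -1.155), INSIG1 (-1.119 and -1.072), BASP1 (-1.401 and -1.045) and TRIB1 (-1.012 and -1.121). The others below 0 were CDKN1C (-1.704 and -0.9455), PPFIA3 (-0.9227 and -1.214), ZNF780B (-1.055 and -0.9071), NR4A1 (-2.025 and -3.474) and TSC22D3 (-1.944 and -3.162).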

How the results depend on the processing

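Counts of genes called higher and lower were 3901 and 4272 as reported, 3695 and 4499 with DESeq2 size factors, 3910 and 4310 with no filter, 3876 and 4229 with a filter at 1 CPM, 3687 and 4494 with the DESeq2 Wald test, 3927 and 4395 with limma-voom, 4263 and 4150 with the length trend removed, 4027 and 4473 with the trend removed within groups (added after seeing the data), and 3158 and 3230 with TF-1 fitted alone. Fitted alone, TF-1 had 230 genes called higher by at least 2-fold in place of 349. Library totals alone gave 3001 and 5225. Leaving out each library in turn gave 3700 to 3979 higher and 4057 to 4316 lower, 342 to 376 and 688 to 737 of them by at least 2-fold, and 3645 to 4266 differences from UT-7 and 3946 to 4906 from UCSD-AML1. The upper ends 3979, 4316, 4266 and 4906 all came without cyclocreatine replicate 1. Of 214 named genes, 206 kept direction and call in all 19 alternatives, and GATM, MECOM, UBXN7, DNPH1, ZNF428, MAN1A2, VPS13A and CKM did not. Most of the 214 were named for a large change or a small p in the reported edgeR fit. That they kept their calls is therefore no further result. Of 116 counts of list members, 79 stayed within 1.5 times in all alternatives, and 20 moved by more with library totals alone, 10 when only TF-1 was fitted, 9 after the correction for length and 9 without cyclocreatine replicate 1. CKM, not called, changed sign with library totals alone (-0.036), without cyclocreatine replicate 1 (-0.018) and without cyclocreatine replicate 3 (-0.0007), the highest of its values without 1 library being 0.1396 without vehicle replicate 3. Replicate numbers did not pair the libraries: deviations of same-numbered libraries correlated at -0.22 to 0.000862, and the fit with the replicate block gave 3739 and 4143. Genes of few counts, such as CKMT2, could not be tested, and changes of under 0.5 on the log2 scale were not all detectable. All p-values rest on 4 libraries a group whose separate culture is not stated.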
